A study of Mus musculus with 6 samples.

Results

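The collagen genes are the genes of the collagen alpha chains, found here by a symbol made of Col, a type number, the letter a and a chain number. Of 22180 genes with a probe of their own on the array, 44 were collagen genes. Where several probes named only 1 collagen gene, the brightest over the 6 arrays stood for it. A collagen gene was described singly where its mean signal reached 2.65 (log2), the middle of all probe levels on the array, which 29 did, and the other 15 were dim. The label holds in these data only as a family name, since most of the 29 signals lay in the lower part of the array's range, between 2.77 and 6.70.

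The livers came from male C57BL/6 mice, 8 weeks old before 1 week of acclimatization. The vehicle group (3 samples) had 7 days of vehicle and then 6 weeks of high fat diet. The Vascepa group (3 samples) had 7 days of Vascepa, a drug made of the ethyl ester of eicosapentaenoic acid, an omega-3 fatty acid, and then the same 6 weeks of diet. Both groups thus had the diet, no group without it was analysed here, and the comparison asks how collagen gene expression on this diet differed after Vascepa. The labels do not tell whether each array had its own animal. The p-values therefore cover the spread among arrays, possibly a technical one, and the number of arrays limits the precision.

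Collagens are triple helices of alpha chains with glycine at regular steps along each chain. In liver, types I, III and V form the fibrils around vessels and in scars, types IV, XV and XVIII belong to basement membranes and the space beside the sinusoids, and type VI forms beaded filaments between fibrils and basement membranes. Hepatic stellate cells and portal fibroblasts are the main sources of fibrillar collagen, and rising fibrillar collagen is the hallmark of fibrosis. Hepatocytes contribute type XVIII. In whole liver, fewer cells of a type and less RNA per cell cannot be told apart.

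Pairs of arrays gave r of 0.906 to 0.986 (across genes, which are not independent replicates), and Vascepa replicate 3 stood farthest from the others. Its mean small nucleolar RNA level was also the highest, 7.36 on the log2 scale against 5.67 to 6.82 on the other 5 arrays. The hepatocyte genes Alb and Ttr, for albumin and transthyretin, read 13.31 and 12.94 in the vehicle mean and 13.27 and 12.87 in the Vascepa mean, near the top of the array's range. Of 16 stellate cell markers 15 passed the level filter. Their summed linear signal lay between 903 and 995 in vehicle livers and between 728 and 1053 in Vascepa livers. In the mean 6 of the 15 were higher and 9 lower with Vascepa. Lrat and Reln, 2 stellate cell genes, differed by −0.19 ± 0.24 and −0.087 ± 0.32 (Vascepa minus vehicle, log2, ± SE). The groups did not overlap in 3 of the 15. Over all genes tested they did not overlap in 8.24%, with 5.11% lower and 3.13% higher with Vascepa. The same shares stand beside the other marker lists below. Postn, for periostin, and Vim, for vimentin, were lower on every Vascepa array (−0.52 ± 0.21 and −0.55 ± 0.24), and Gfap was higher on every one (0.35 ± 0.18). For portal fibroblasts 5 of 9 markers passed the level filter, with summed signals of 54.8 to 72.6 and 60.1 to 86.6, and all 5 were higher in the mean, Thy1 and Eln by 0.33 ± 0.23 and 0.099 ± 0.21 and Cd34, without overlap, by 0.49 ± 0.24. Summed markers of sinusoidal endothelium (9 of 9) lay at 909 to 999 and 878 to 995, with Stab1 and Stab2 at −0.10 ± 0.23 and −0.044 ± 0.19. The ranges of bile duct cells (4 of 7) were 47.5 to 64.2 and 39.6 to 65.4, with Krt7 and Krt19 at 0.30 ± 0.30 and 0.11 ± 0.26. Of 8 Kupffer cell markers 7 were lower with Vascepa. Their summed signal overlapped, 661 to 721 against 512 to 692, and their mean log2 level did not, 6.03 to 6.12 against 5.74 to 5.93. Clec4f differed by −0.086 ± 0.32, and Vsig4 and Timd4, by −0.53 ± 0.18 and −0.54 ± 0.22, were lower on every Vascepa array. Of 5 skeletal muscle markers above the filter (8 listed) 4 were higher and 1 lower. Their summed signal did not overlap, 60.8 to 66.9 against 77.2 to 90.04, with Acta1 and Mb at 0.52 ± 0.18 and 0.41 ± 0.21, while Tnnt3, of the same list, was lower on every Vascepa array (−0.12 ± 0.16). Collagen genes are also expressed in muscle, and the part of these marker differences in the values below was not tested.

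The collagen genes of Vascepa and vehicle livers could not be told apart at the level of single genes. None of the 29 passed a Benjamini-Hochberg adjusted p of 0.05 (limma, lowest adjusted p = 0.976), as 0 of 13493 genes did (0%). At an unadjusted p under 0.05 there was 1 collagen gene, Col23a1, which was lower in Vascepa livers, against 2.68% of all genes tested in either direction with 1.64% lower and 1.04% higher. In the mean 19 of the 29 were higher and 10 lower with Vascepa, while 39.9% of all genes were higher and 60.1% lower. The median difference was 0.067 over the collagen genes and −0.063 over all genes tested. The collagen median thus lay 0.13 above that of all genes. Centring each array on its median signal lowers every gene's difference by the same 0.076, so the split became 12 higher and 17 lower by construction and the gap stayed 0.13. Quantile normalization applied again, which is not a uniform shift, left 17 higher and 12 lower and a gap of 0.043. Without Vascepa replicate 3 the split was 15 to 14 and the gap 0.025, and without any other single array the gap was 0.11 to 0.16. With no level filter the gap was 0.058, with medians of 0.059 over 44 collagen genes and 0.0010 over all genes. With the filter at the 75th percentile it was 0.11, over only 4 collagen genes, with a median of −0.14 over all genes. The median of all genes thus moved with the level filter, and the part of signal level in the gap was not tested.

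**Figure D1:**
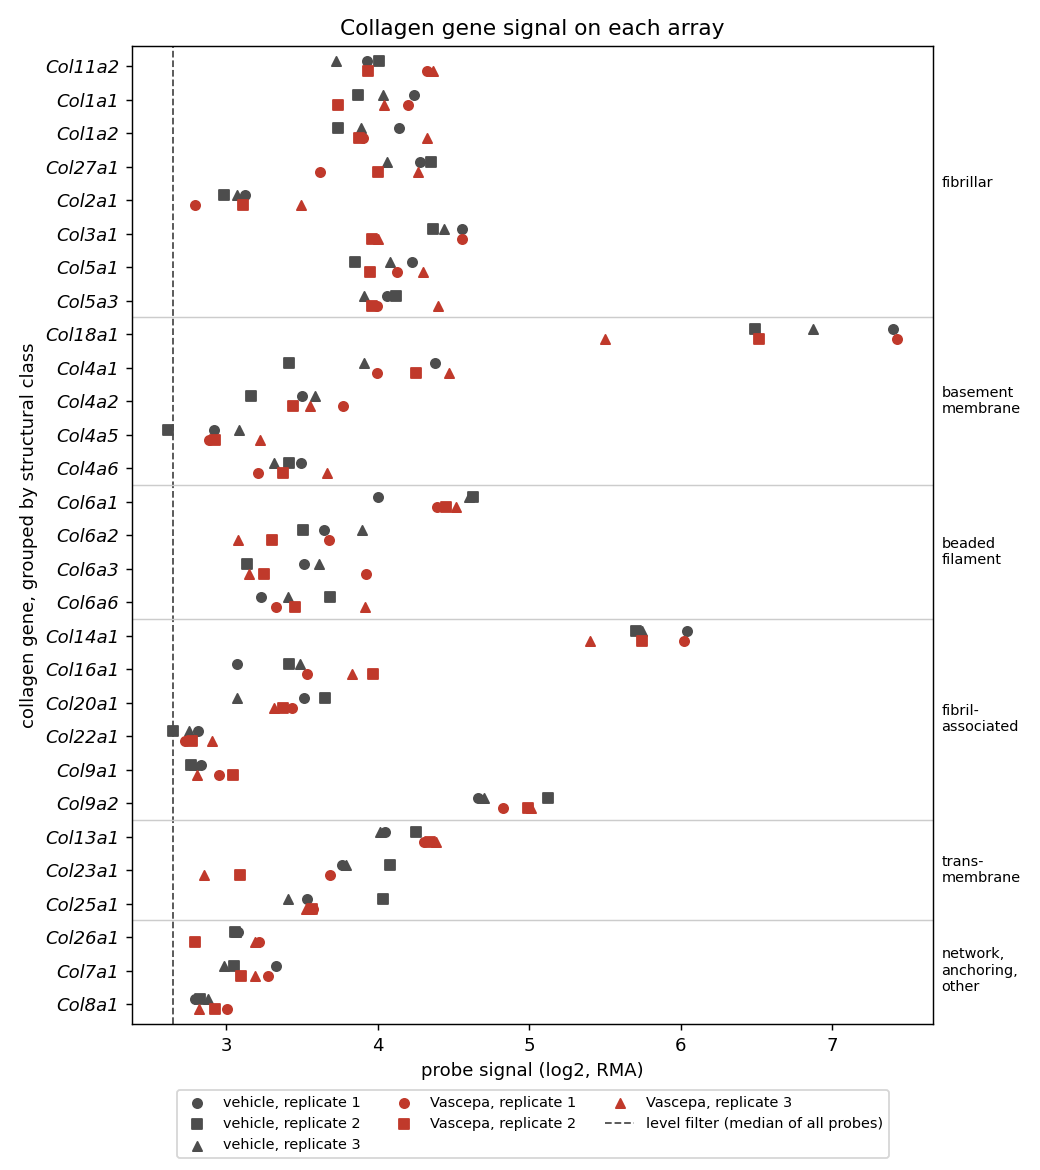
Probe signal (log2) of the 29 collagen genes above the level filter on each of the 6 arrays, with vehicle arrays in grey above and Vascepa arrays in red below each gene's line. The groups overlap in all but 3 genes, Col13a1, Col16a1 and Col23a1, and Col18a1 spans 5.50 to 7.43.

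The 95% confidence interval of the difference bounds what 3 arrays against 3 could show. It included 0 in 28 of the 29 genes. It lay inside a 2-fold change either way in 27 genes, Col18a1 and Col23a1 being the exceptions, and inside a 1.5-fold change in 13. Only Col23a1 had a mean difference of 1.5-fold or more, against 3.39% of all genes tested. The groups did not overlap in 3 collagen genes, against 8.24% of all genes. Col23a1 was the lower one, against 5.11% of all genes, and Col13a1 and Col16a1 the higher ones, against 3.13%. When limma weighted the arrays by their estimated quality, 6 collagen genes passed the adjusted threshold, against 30.4% of all genes. That fit stopped before it converged and gave Vascepa replicate 2 a weight of 39.5, against 0.178 to 2.33 for the others.

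**Figure D2:**
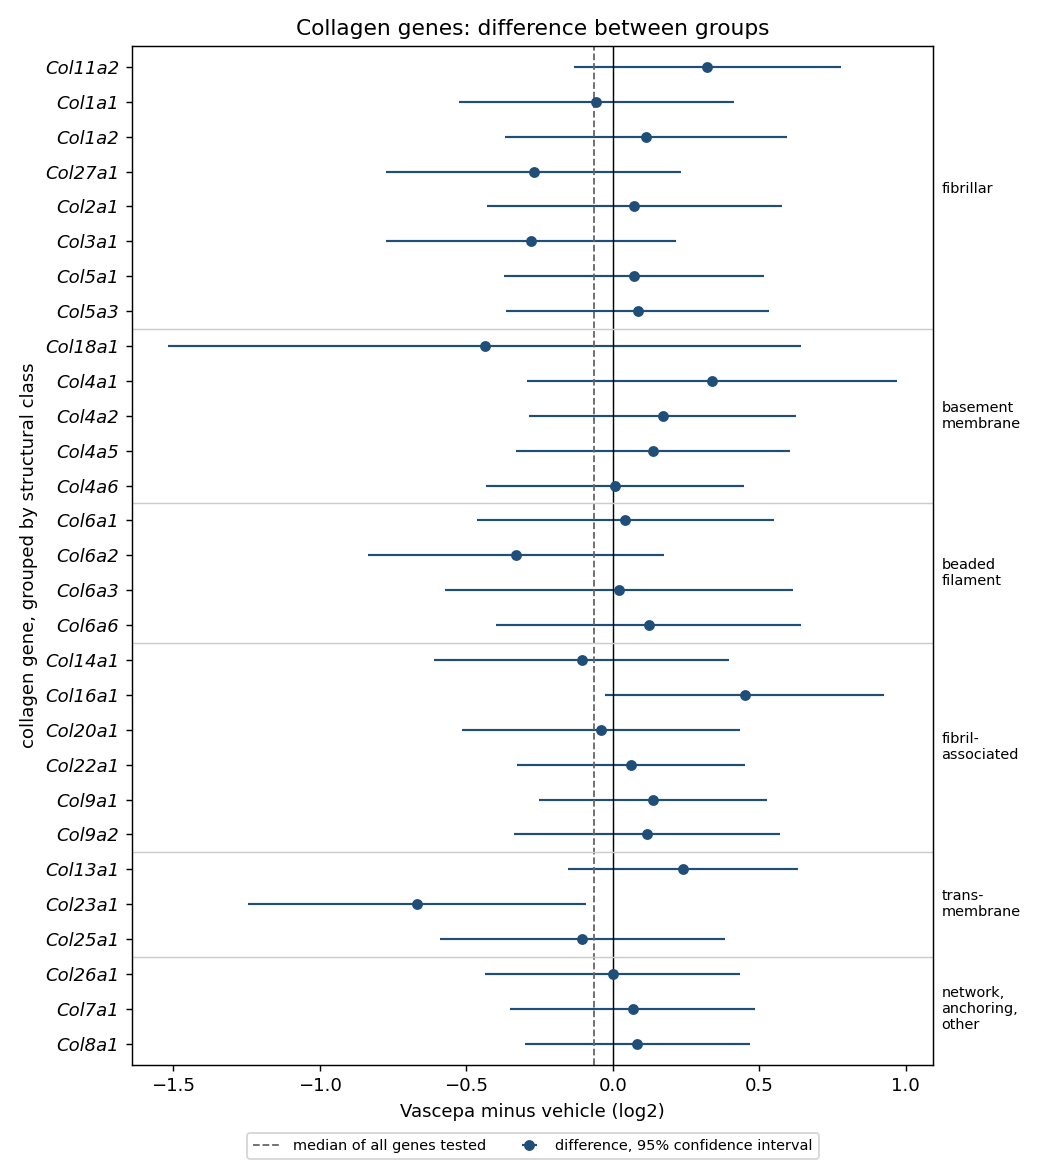
Difference between Vascepa and vehicle means (log2) for each of the 29 collagen genes, with its 95% confidence interval from limma and the median of all genes tested as a dashed line. The intervals cross 0 except that of Col23a1, which runs from −1.24 to −0.093.

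Fibrillar collagens, which carry the tensile strength of connective tissue, gave no call. Of 11 genes 8 passed the level filter, 5 higher and 3 lower in the mean, with a median difference of 0.073. Col1a1, the main chain of type I collagen, read 4.24, 3.87 and 4.03 on vehicle arrays 1, 2 and 3 and 4.20, 3.74 and 4.04 on Vascepa arrays 1, 2 and 3. The groups covered almost the same range, and replicate 2 was lowest in both. The difference was −0.056 ± 0.20 (SE, 95% interval −0.52 to 0.41, n = 3 and 3). Col1a2, the partner chain of type I, read 4.14, 3.74 and 3.89 in vehicle and 3.91, 3.88 and 4.33 in Vascepa livers, a difference of 0.11 ± 0.21. Its highest value was that of Vascepa replicate 3, so the pair did not keep the same order of arrays. A further probe annotated to Col1a2 was far dimmer, with a mean of 1.78, and differed by −0.16.

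Col3a1, the chain of the fine reticulin fibres of liver, was the fibrillar gene with the lowest difference. It read 4.56, 4.36 and 4.44 in vehicle livers and 4.55, 3.96 and 4.004 in Vascepa livers. Vascepa replicates 2 and 3 lay below every vehicle array and Vascepa replicate 1 lay within their range. The difference was −0.28 ± 0.21 (95% interval −0.77 to 0.21). Col27a1, a minor fibrillar chain best known from cartilage, differed by −0.27 ± 0.22, with Vascepa replicate 1 lowest at 3.62. Col5a1 and Col5a3, chains of the type V collagen that starts fibrils, differed by 0.073 ± 0.19 and 0.085 ± 0.19. The second probe of Col5a1 was also higher in the mean, by 0.19. The cartilage chains Col2a1 and Col11a2 differed by 0.073 ± 0.22 and 0.32 ± 0.20. Col11a2 had Vascepa replicates 1 and 3, at 4.33 and 4.36, above all vehicle arrays, whose highest value was 4.01, and Vascepa replicate 2 at 3.94.

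The stretches upstream of Col1a2 and Col3a1 differ in the motifs searched, which is why these 2 are shown. The 150 bases upstream of the RefSeq starts (build GRCm38.p6) are given 5′ to 3′ on the gene's strand, Col1a2 at chr6:4505468-4505617 (plus strand) and Col3a1 at chr1:45311388-45311537 (plus strand). Capitals mark the CCAAT box, the TATAAA box or the GC box, spelled GGGCGG, on either strand.
Col1a2: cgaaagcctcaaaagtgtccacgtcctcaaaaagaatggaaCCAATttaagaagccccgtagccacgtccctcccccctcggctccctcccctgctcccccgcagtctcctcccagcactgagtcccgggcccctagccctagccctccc
Col3a1: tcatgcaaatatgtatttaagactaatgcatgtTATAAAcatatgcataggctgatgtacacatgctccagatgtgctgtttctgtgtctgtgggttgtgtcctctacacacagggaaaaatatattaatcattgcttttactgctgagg
Col1a2 holds a CCAAT in this stretch and Col3a1 a TATAAA, each in the part of the stretch far from the start. RefSeq windows around the start were at hand for 24 of the 29 genes, 27 windows in all, and not for Col14a1, Col1a1, Col22a1, Col26a1 and Col2a1. Over these windows GGGCGG was found in 70.4%, CCAAT in 37% and TATAAA in 11.1%. Over the 32851 windows of all genes the shares were 35.7%, 37.4% and 13.6%. Among the windows with GGGCGG was that of Col1a2, whose stretch shown above holds none. These 3 motifs do not overlap one another in the stretches shown, and a match describes letters only.

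Basement membrane collagens form the sheets under endothelium and bile ducts. Of 8 genes 5 passed the level filter, 4 higher and 1 lower in the mean. Col4a1 and Col4a2 encode the 2 chains that combine into the common type IV molecule. Col4a1 read 4.38, 3.42 and 3.91 in vehicle livers and 3.998, 4.25 and 4.47 in Vascepa livers. Vascepa replicate 3 was the highest array, vehicle replicate 1 came next and vehicle replicate 2 was the lowest. The difference was 0.34 ± 0.27 (95% interval −0.29 to 0.97). Without vehicle replicate 2 it was 0.098, and without vehicle replicate 1 it was 0.58. Col4a2 read 3.50, 3.16 and 3.58 in vehicle livers and 3.77, 3.44 and 3.55 in Vascepa livers. Vehicle replicate 2 was again the lowest array, and the difference was 0.17 ± 0.20.

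Col4a1 and Col4a2 lie head to head on chromosome 8, which is why their shared start is shown. In RefSeq (GRCm38.p6) Col4a1 starts on the minus strand at base 11312826 and Col4a2 on the plus strand at base 11312805, so that their first 22 bases face each other over chr8:11312805-11312826. Motifs are not put in capitals in these bases. The Col4a2 strand holds GGGCGG, which reads CCGCCC on the Col4a1 strand.
Col4a2 strand: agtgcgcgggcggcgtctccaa
Col4a1 strand: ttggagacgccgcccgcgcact
Both genes' differences were positive and smaller than the spread between arrays. Col4a5 and Col4a6, chains of a type IV molecule best known from kidney and smooth muscle, also lie head to head, with starts 1343 bases apart on chromosome X. They differed by 0.14 ± 0.20 and 0.0081 ± 0.19, and vehicle replicate 2, at 2.62, lay under the level filter in Col4a5.

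Col18a1, the type XVIII chain from which endostatin is cut and a known hepatocyte product, varied most among the collagen genes. It read 7.40, 6.49 and 6.87 in vehicle livers and 7.43, 6.52 and 5.50 in Vascepa livers. Vascepa replicate 1 lay just above the highest vehicle array, Vascepa replicate 2 within the vehicle range and Vascepa replicate 3 below it. The SD was 0.45 in vehicle and 0.96 in Vascepa livers (n = 3 each). The difference of −0.44 ± 0.47 had a 95% interval of −1.52 to 0.64. Without Vascepa replicate 3 it was 0.052, and without Vascepa replicate 1 it was −0.91.

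RefSeq gives Col18a1 2 windows, and the files give 1 value for the gene, which does not separate transcripts by start. The 150 bases before each start are shown because these stretches differ in the motifs searched. The first lies upstream at chr10:77166531-77166680 and the second at chr10:77113706-77113855, both on the minus strand of GRCm38.p6, with capitals as above.
Col18a1 upstream start: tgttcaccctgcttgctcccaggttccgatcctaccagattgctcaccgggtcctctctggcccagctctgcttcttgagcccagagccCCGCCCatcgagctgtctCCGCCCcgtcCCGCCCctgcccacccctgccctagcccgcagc
Col18a1 downstream start: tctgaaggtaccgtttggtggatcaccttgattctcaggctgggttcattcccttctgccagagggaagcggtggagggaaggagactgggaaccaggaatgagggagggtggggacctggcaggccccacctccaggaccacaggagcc
The upstream stretch holds GGGCGG, read on the other strand as CCGCCC, and the downstream stretch holds none of the 3 motifs.

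Col18a1 moved with the small nucleolar RNA level of the arrays and in the opposite direction. Vehicle livers read 5.80, 6.69 and 6.06 for it and Vascepa livers 5.67, 6.82 and 7.36, so the array with the least Col18a1 had the most small nucleolar RNA. Fn1, for the fibronectin that hepatocytes secrete, and Bgn, for the proteoglycan biglycan, were chosen after their values were seen. Fn1 read 11.26, 9.79 and 10.90 in vehicle and 11.64, 10.32 and 9.38 in Vascepa livers, and Bgn read 10.49, 9.89 and 10.16 and then 10.63, 9.43 and 8.71. Both were highest on Vascepa replicate 1 and lowest on Vascepa replicate 3, as Col18a1 was. This was not particular to these 3 genes. The stellate cell marker Ecm1, the collagen receptor Itga1 and the hepatocyte markers Hnf4a and Apob had the same highest and lowest arrays. Ttr and Col1a1 did not. The summed signal of 10 hepatocyte markers was 36181 to 41912 in vehicle livers and 43735, 37909 and 29979 in Vascepa livers. The part of these in the Col18a1 values was not tested beyond 1 fit. With the small nucleolar RNA level as a covariate, added after the data had been seen, the Col18a1 difference was 0.018.

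**Figure D3:**
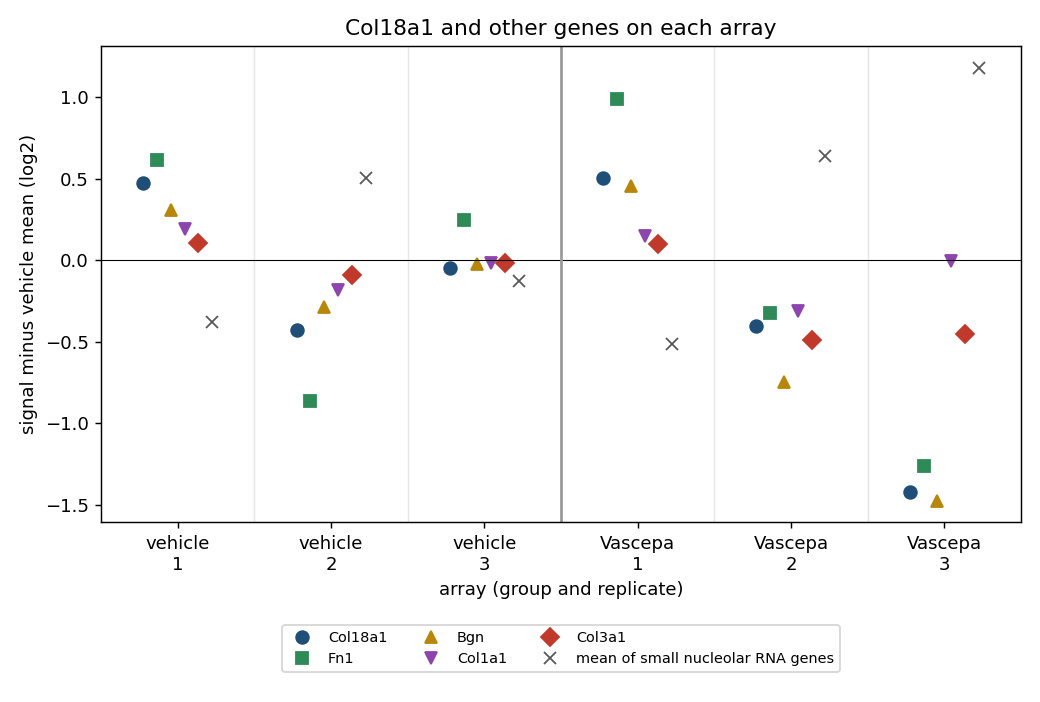
Signal on each array minus the vehicle mean (log2) for Col18a1, Fn1, Bgn, Col1a1, Col3a1 and the mean of 68 small nucleolar RNA genes, with arrays named by group and replicate. Col18a1, Fn1 and Bgn are lowest on Vascepa replicate 3, where the small nucleolar RNA mean is highest, and Col1a1 is not.

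Beaded filament collagens surround cells and link fibrils to basement membranes. Of 6 genes 4 passed the level filter. Col6a2 read 3.65, 3.51 and 3.90 in vehicle livers and 3.68, 3.30 and 3.08 in Vascepa livers. Vascepa replicates 2 and 3 lay below all vehicle arrays, Vascepa replicate 1 did not, and the difference was −0.33 ± 0.22 (95% interval −0.84 to 0.17). Its partners in the same trimer did not share this difference in the mean, with Col6a1 at 0.043 ± 0.22 and Col6a3 at 0.020 ± 0.26. Whether the 3 chains differ from one another was not tested. In Col6a1 vehicle replicate 1, at 3.9998, was the low array and the other 5 lay between 4.39 and 4.63. A dimmer second probe of Col6a1 differed by −0.0011. Col6a6, a relative of the Col6a3 chain, differed by 0.12 ± 0.23.

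Fibril-associated collagens sit on the surface of fibrils. Of 9 genes 6 passed the level filter, 4 higher and 2 lower. Col16a1, found at the edges of fibrils in many tissues, read 3.07, 3.42 and 3.49 in vehicle livers and 3.53, 3.97 and 3.83 in Vascepa livers. Every Vascepa array lay above every vehicle array, by a gap between the nearest that is small beside the SD of 0.22 in each group. The difference was 0.45 ± 0.21 (95% interval −0.027 to 0.93, limma, adjusted p = 0.976). Col14a1, undulin, which fibroblasts and stellate cells of liver express, read 6.04, 5.71 and 5.74 in vehicle and 6.02, 5.74 and 5.403 in Vascepa livers. The difference was −0.11 ± 0.22, and Vascepa replicate 3 was lowest, as in Col18a1. Col9a1 and Col9a2, cartilage chains, differed by 0.14 ± 0.17 and 0.12 ± 0.20. Col20a1 and Col22a1 differed by −0.040 ± 0.21 and 0.062 ± 0.17, and vehicle replicate 2 of Col22a1 read 2.65, at the level of the filter.

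Transmembrane collagens span the cell membrane once and carry their triple helices outside. This class held the largest difference of any collagen gene. Col23a1 read 3.77, 4.08 and 3.79 in vehicle livers and 3.69, 3.09 and 2.85 in Vascepa livers. All Vascepa arrays lay below all vehicle arrays, Vascepa replicate 1 only just. Means were 3.88 ± 0.17 and 3.21 ± 0.43 (SD, n = 3 each), 1.59-fold lower with Vascepa (log2 difference −0.67 ± 0.25, SE). It was the 1 collagen gene with an unadjusted p under 0.05, and it did not pass after adjustment (limma, adjusted p = 0.976). Left-out arrays moved the difference between −0.91 and −0.49. The unadjusted p stayed under 0.05 without replicate 1 of either group and did not without any other array. The Vascepa values of replicates 2 and 3 were near the level filter of 2.65.

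Col13a1, a transmembrane collagen of cell contacts, was tighter. It read 4.05, 4.26 and 4.02 in vehicle livers and 4.30, 4.35 and 4.38 in Vascepa livers. Every Vascepa array lay above every vehicle array, and the difference was 0.24 ± 0.17 (95% interval −0.15 to 0.63). Col25a1, known from amyloid plaques and nerve, differed by −0.10 ± 0.21, with vehicle replicate 2 highest at 4.03 and the other 5 arrays between 3.41 and 3.57.

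The upstream stretches of Col23a1 (chr11:51289770-51289919, plus strand) and Col16a1 (chr4:130047690-130047839, plus strand), which had the largest differences in each direction, follow from the same RefSeq table (GRCm38.p6), with capitals as above.
Col23a1: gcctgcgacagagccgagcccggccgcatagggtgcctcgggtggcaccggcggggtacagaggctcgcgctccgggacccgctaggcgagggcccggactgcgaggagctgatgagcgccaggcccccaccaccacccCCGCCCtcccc
Col16a1: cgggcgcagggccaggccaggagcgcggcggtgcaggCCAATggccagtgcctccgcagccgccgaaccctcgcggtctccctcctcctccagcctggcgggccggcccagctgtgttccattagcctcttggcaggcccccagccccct
Col23a1 holds CCGCCC, which is GGGCGG on the other strand, close to its start, and Col16a1 holds CCAAT farther upstream.

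The remaining class took in network, anchoring and other collagens, and 3 of its 6 genes passed the level filter. Col7a1, of the anchoring fibrils of skin, differed by 0.067 ± 0.18, Col8a1, of vessel walls, by 0.084 ± 0.17 and Col26a1 by −0.00070 ± 0.19. In Col26a1 the vehicle arrays lay between 3.06 and 3.08 and the Vascepa arrays between 2.79 and 3.22.

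**Figure D4:**
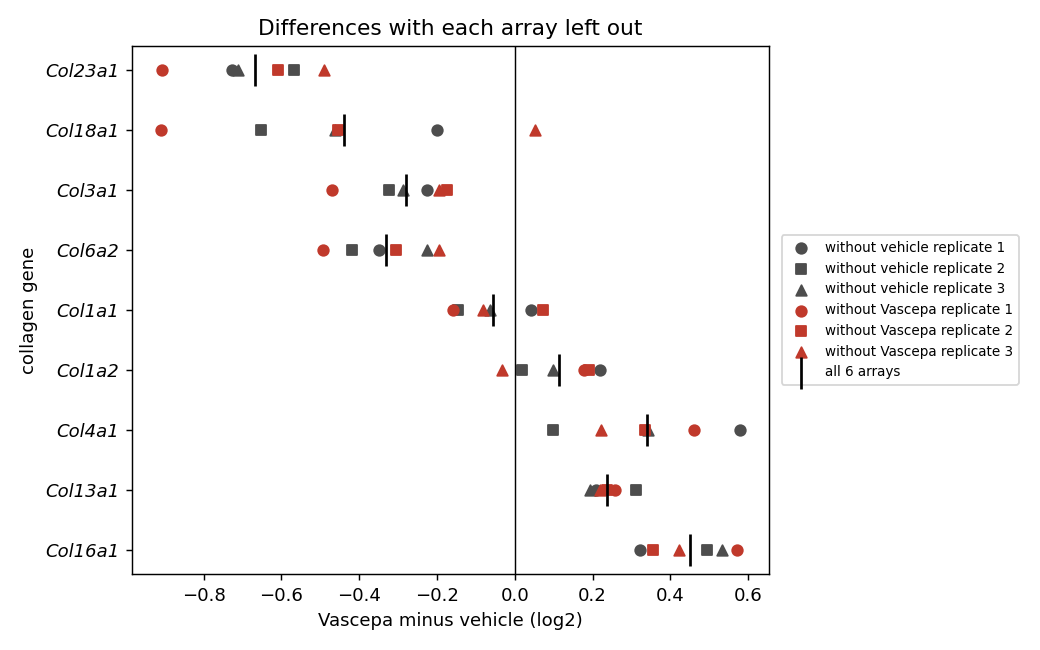
Difference between Vascepa and vehicle means (log2) of 9 collagen genes with all 6 arrays (bar) and with each array left out in turn (symbols, grey for a vehicle array and red for a Vascepa array). Col23a1 stays between −0.91 and −0.49 and Col16a1 between 0.32 and 0.57, while Col18a1 runs from −0.91 to 0.052.

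The 15 dim collagen genes had means between 1.94 and 2.63, under the filter level. Col10a1, at 2.63, lay just inside the dim set and Col22a1, at 2.77, just outside it. Among these 15 the differences ran from −0.40 in Col15a1 to 0.33 in Col4a3, and 0 passed after adjustment in a fit with no level filter (limma, 22180 genes, 757 or 3.41% at an unadjusted p under 0.05). The 3 largest belonged to Col15a1, a basement membrane collagen, Col10a1, of growing cartilage, and Col4a3, of the kidney glomerulus. Col15a1 read 2.64, 2.49 and 2.93 in vehicle and 2.26, 2.36 and 2.25 in Vascepa livers, and Col10a1 read 2.87, 2.76 and 2.83 and then 2.43, 2.498 and 2.41. Their groups did not overlap, nor did those of Col4a3 and of Col12a1, named here after its values were seen, both higher with Vascepa, and without the filter groups did not overlap in 9.17% of all genes. Col10a1 was under 0.05 before adjustment in that fit and not after it (limma, adjusted p = 0.967). Such low signals give no evidence for or against expression of these genes.

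The genes that build, cut and sense collagen were lower in the mean more often than not. The 5 lists were chosen with earlier results of these data known. Of 68 of their genes above the filter 56 were lower and 12 higher with Vascepa, with a median of −0.16 beside −0.063 for all genes tested, and 0 passed after adjustment (limma, lowest adjusted p = 0.976). Without overlap of the groups 7 of the 68 were lower and 1 was higher, against 5.11% and 3.13% of all genes. Fkbp14, Pcolce2, Cd44 and Pdgfd, 4 genes, were under an unadjusted p of 0.05, all lower, against 1.64% of all genes in that direction. With single arrays left out between 1 and 9 genes were under that p, so this set was not stable. Cd44 was alone without vehicle replicate 2, and Pcolce2 was alone without vehicle replicate 3 or Vascepa replicate 3. The 9 came without Vascepa replicate 1, where 15% of all genes were under it in either direction. Without any other single array that share was 1.04% to 2.6%. The tally moved both ways with single arrays. Without Vascepa replicate 3, 40 were lower and 28 higher, with a median of −0.048 beside −0.016 for all genes, and without vehicle replicate 1 it was 45 to 23, with −0.087 beside −0.061. Without Vascepa replicate 1 it was 57 to 11, with −0.30 beside −0.087, and without vehicle replicate 2 it was 55 to 13, with −0.23 beside −0.073. The small nucleolar RNA covariate gave 43 to 25, with −0.041 beside −0.030. The level filter moved both medians. With the filter at the 75th percentile 31 of 33 genes were lower, with −0.19 beside −0.14. With no filter 63 of 88 were lower, with −0.13 beside 0.0010. The part of signal level in the tally was not tested. Array weights gave 59 to 9, with −0.19 beside −0.055 and 21 genes past the adjusted threshold, against 30.4% of all genes.

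Of the genes that hydroxylate, fold and export collagen chains 15 were tested, 14 lower and 1 higher, with a median of −0.16. Fkbp14, a folding enzyme of the endoplasmic reticulum, read 3.96, 3.94 and 3.86 in vehicle and 3.50, 3.65 and 3.35 in Vascepa livers, without overlap (−0.42 ± 0.17). P4ha1, a catalytic subunit of prolyl 4-hydroxylase, without which the helix does not hold, differed by −0.51 ± 0.25, also without overlap, and Crtap, of the prolyl 3-hydroxylation complex, by −0.19 ± 0.17 without overlap. Of the genes of procollagen cleavage, fibril assembly and cross-linking 15 were tested, 11 lower and 4 higher. Pcolce2, an enhancer of procollagen cleavage, read 4.06, 4.60 and 4.22 in vehicle and 3.86, 3.40 and 3.65 in Vascepa livers, without overlap. Its difference of −0.66 ± 0.22 was 1.58-fold (limma, adjusted p = 0.976). Lum, a small proteoglycan that spaces fibrils, differed by −0.49 ± 0.25.

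Collagen breakdown genes and their inhibitors were 8 lower and 3 higher of 11, with a median of −0.100. Pepd, which frees proline from the last dipeptides, differed by −0.27 ± 0.22 and Mmp19, a matrix metalloproteinase, by −0.45 ± 0.38. Of 7 collagen receptors and binding proteins 6 were lower. Cd44, a matrix receptor, differed by −0.43 ± 0.18 without overlap, and Lair1, an inhibitory collagen receptor of immune cells, by −0.53 ± 0.25. In Cd44 the Vascepa mean of 2.55 lay under the filter level, which its mean over 6 arrays passed. Among 20 genes of TGF-beta and PDGF signalling, which drives stellate cells to make collagen, 17 were lower and 3 higher, with a median of −0.16. Pdgfd and Pdgfc, growth factors for stellate cells, differed by −0.38 ± 0.16 and −0.50 ± 0.26, and the Pdgfd arrays read 3.36 to 3.45 in vehicle and 3.01 to 3.04 in Vascepa livers. Tgfb3, a TGF-beta ligand, was lower on every Vascepa array (−0.28 ± 0.18). Pdgfa, a PDGF ligand, was the 1 pathway gene higher without overlap, at 3.998, 3.92 and 3.86 in vehicle and 4.13, 4.15 and 4.16 in Vascepa livers (0.22 ± 0.16).

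**Figure D5:**
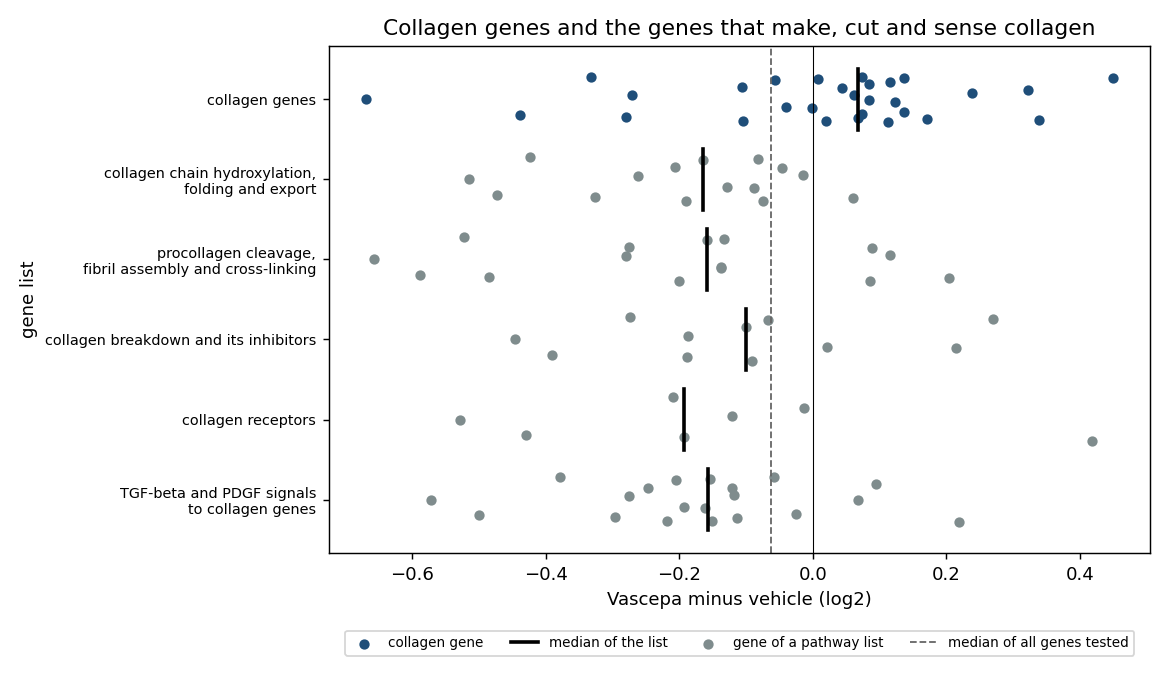
Differences between Vascepa and vehicle means (log2) of the collagen genes and of the genes in 5 lists around collagen, with a bar at each list's median and a dashed line at the median of all genes tested. The collagen median is 0.067, and those of the 5 lists lie between −0.19 and −0.100.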

How the data were processed

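The authors deposited log2 expression values, 1 per probe (transcript cluster) and array, made with Affymetrix Expression Console and RMA per the submitters' processing notes. For their versions and for a genome build the sources used here give nothing. RMA corrects background, equalizes signal distributions and compresses differences between dim probes, and signals of different probes are not comparable as abundances. The deposited arrays were still not equal, with all-probe medians from 2.62 on vehicle replicate 1 to 2.81 on Vascepa replicate 3 (log2). Of 41345 probes, 23521 had 1 gene symbol in the platform annotation, 1814 had several and were not used, among them a probe shared by Col6a1 and other genes, and 16010 had none. Symbols were updated through RefSeq gene IDs for 23328 probes.

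Vascepa was compared with vehicle, 3 arrays against 3, with limma 3.58.1 in R 4.3.3 (lmFit, eBayes, no covariate) over the 13493 genes at or above the median probe level. P-values were adjusted by Benjamini-Hochberg over all of them. The procedure was also run on simulated data with independent genes and no deviation shared across an array. That setting differs from these arrays, so the run does not show how the fit behaves on them. The members and lists were chosen with earlier results of these data known. All collagen genes above the filter, the 3 largest differences among dim ones, the 2 smallest p of each pathway list and the first 2 tested of each marker list are named. Fn1, Bgn, P3h1, Crtap, Itga1, Tgfb3, Pdgfa, Col12a1 and the markers Postn, Vim, Gfap, Ecm1, Cd34, Timd4, Tnnt3, Hnf4a and Apob were added after their values were seen. Promoter letters came from RefSeq (GRCm38.p6) and were not linked to probes. Alternatives covered normalization, probe choice, level filter, prior, array weights, the replicate block and left-out arrays.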

Additional observations from a re-analysis of the deposited data

How the results depend on the processing

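Under quantile normalization applied again the sign turned in Col14a1 (0.0093), Col22a1 (−0.0090), Col4a6 (−0.020), Col6a3 (−0.034), Reln (0.041) and Stab2 (0.079). Centring the arrays on their medians lowers every difference by 0.076, which by construction put the collagen median at −0.0086 and small positive differences below 0 and says nothing about single genes, with Col22a1 (−0.014), Col2a1 (−0.0028), Col4a6 (−0.068), Col5a1 (−0.0027), Col6a1 (−0.033), Col6a3 (−0.056) and Col7a1 (−0.0086). The mean of all probes gave −0.024 for Col1a2. Collagen genes under an unadjusted p of 0.05 numbered 2 without a level filter and 2 with a trended prior, against 3.41% and 2.92% of all genes. With a filter at the 75th percentile they were 0 of 4, against 1.47%, and the collagen median was −0.032. Array weights called 4100 genes (30.4%), 6 of them collagen genes, and gave a collagen median of −0.0055. These weights put 12 collagen genes under an unadjusted 0.05, against 43.7% of all genes. They turned Col1a2 (−0.036), Col20a1 (0.14), Col25a1 (0.050), Col4a2 (−0.068), Col4a5 (−0.065), Col5a1 (−0.12), Col5a3 (−0.0055), Col6a1 (−0.052), Col6a3 (−0.27), Eln (−0.11), Stab2 (0.075) and Krt7 (−0.29). The small nucleolar RNA covariate, chosen after seeing the data, called 2 genes, neither a collagen. It left 2 collagen genes under an unadjusted 0.05, against 6.06% of all genes. It turned Col14a1 (0.040), Col18a1 (0.018), Col1a1 (0.029), Col26a1 (0.024), Col2a1 (−0.046), Col4a6 (−0.073), Col6a1 (−0.035), Col6a6 (−0.029), Reln (0.18), Stab1 (0.055) and Stab2 (0.034). With 1 array left out, 0 to 4 collagen genes were under an unadjusted 0.05. The 4 came without Vascepa replicate 1 (Col16a1, Col18a1, Col23a1 and Col3a1), where 15% of all genes were under it. There were 0 without replicate 2 or replicate 3 of either group. Without any array but Vascepa replicate 1 the share of all genes was 1.04% to 2.6%. Leaving out 1 array moved differences across 0 over these ranges, Col14a1 −0.26 to 0.053, Col18a1 −0.91 to 0.052, Col1a1 −0.16 to 0.072, Col1a2 −0.033 to 0.22, Col20a1 −0.21 to 0.082, Col25a1 −0.23 to 0.083, Col26a1 −0.075 to 0.14, Col2a1 −0.11 to 0.24, Col4a6 −0.12 to 0.11, Col5a1 −0.027 to 0.16, Col5a3 −0.055 to 0.16. The rest were Col6a1 −0.16 to 0.15, Col6a3 −0.22 to 0.17, Col6a6 −0.050 to 0.25, Col7a1 −0.0019 to 0.17, Lrat −0.36 to 0.036, Reln −0.38 to 0.25, Eln −0.082 to 0.22, Stab1 −0.26 to 0.072, Stab2 −0.11 to 0.088, Krt19 −0.12 to 0.27, Clec4f −0.45 to 0.18, Alb −0.073 to 0.0027. The replicate block left 0 calls, 1 collagen gene under an unadjusted 0.05 and 438 genes under an unadjusted 0.05 against 362. The collagen median of 0.067 cannot move under the block, since the groups are balanced. Among the pathway genes under that p the block put P4ha1, P3h1, Pcolce2 and Pdgfc in place of Fkbp14, Pcolce2, Cd44 and Pdgfd. Deviations from the group means correlated at 0.606, 0.108 and −0.129 between same-numbered arrays, and at −0.634 to 0.573 between the others. With 3 arrays a group these values cannot show whether the numbers pair the samples. The cause of these shifts was not tested. Of 29 collagen genes 11 kept their sign under every alternative run. The replicate block, the trended prior and the level filters leave a difference unchanged by construction, so only the other alternatives could turn a sign. With the filter at the 75th percentile only 4 of these genes were tested.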
